A study of Homo sapiens with 8 samples.

Results

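Of 18955 genes with UMI counts in 5738 SUM159 cells, 46 genes of 13q12 to 13q14 on chromosome 13, around but without RB1, are described here as members. They are not all the genes of that stretch, which held 122 others with UMIs in DMSO or JQ1+palbociclib cells. The 46 members were chosen by map position after the low level of RB1 in a group of cells of the JQ1+palbociclib library, and the raised levels of some of its neighbours there, had been seen, so every value of that cell contrast is given as a description without a test. SUM159 is an established human triple-negative breast cancer line, and its cells carried a lentiviral barcode library. There were 8 libraries. One held pre-treatment cells, and the others held cells passaged up to 18 times in DMSO vehicle, in 0.6 nM paclitaxel, in 160 nM palbociclib, in 100 nM JQ1 (2 libraries, JQ1-A and JQ1-B) or in JQ1 combined with either of the other drugs (JQ1+paclitaxel and JQ1+palbociclib). The drug JQ1 displaces BET bromodomain proteins from chromatin, palbociclib inhibits CDK4 and CDK6, and paclitaxel stabilises microtubules. DMSO, paclitaxel, JQ1-A and JQ1+paclitaxel were made in the same experiment, and palbociclib, JQ1-B and JQ1+palbociclib in another without a vehicle library. Replicate cultures of a treatment were mixed before the single-cell step, so a library is 1 sample, and only JQ1 alone has 2. Cells were not assigned to their culture, so differences between cell groups and between cultures of a library cannot be told apart.

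The libraries held 459 to 1024 cells and 10621159 to 24240835 UMIs, and 13 cell barcodes (0.227%) occurred in more than 1 library. The markers VIM, CD44, KRT18 and S100A6 were present in all 8 libraries, ERBB2 had at least 5.32 CPM (the UMIs of a gene scaled to the same total in every library), and ESR1, PGR, PTPRC and EPCAM were at or below 0.565 CPM. CD3E, PECAM1, CDH5 and CDH1 were not among the genes with UMI counts under these names. Of the 46 members, 29 had a mean of at least 20 CPM over the libraries, and 26 had at least 20 CPM in JQ1+palbociclib. The map positions were read from an annotation of GRCh37, the same build as the hg19 of the files.

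A gain or loss of a chromosome segment changes the number of templates for all genes in it, and neighbouring genes then often shift together whatever their function. Genes in a segment can also be read from chromatin that opens or closes over a long stretch, and a single gene can move through its own promoter. The long arm of chromosome 13 is best known in cancer for RB1, whose protein holds cells before S phase and is inactivated by CDK4 and CDK6, and for BRCA2, which repairs broken DNA by recombination. The question put to the members was whether a shift between cells was shared by neighbouring genes. Gene copy number was not measured in the files used here.

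Within JQ1+palbociclib, 143 of 1024 cells held 5 or more UMIs over TIMP3, HTRA3 and COL1A1, which encode extracellular matrix proteins and enzymes or inhibitors that act on them, and 633 cells held 0 or 1. They are called matrix-high and matrix-low cells here. UMIs were summed over each group of cells, and ratios are log2 ratios of CPM + 1, centred on the median gene with at least 20 CPM, which before centring was lower in matrix-high cells by a log2 ratio of -0.145. The members formed 3 runs along the chromosome. The borders of the runs were set after the values were seen. The first run, MPHOSPH8 to MRP63, held 6 members, the middle run, MIPEP to SUCLA2, held 36, and the last run, MED4 to SUGT1, held 4.

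All 20 members of the middle run with at least 20 CPM were higher in matrix-high cells, with a median log2 ratio of 0.76 (0.48 to 1.38). For 19 of them the ratio was at least 0.5, against 6.85% of 4334 genes tested in the same way. The 95% counting interval of the ratio lay above 0 for all 20. The 3 members of the first run with that level had a median of -0.12 (-0.39 to -0.11), and the 3 of the last run a median of 0.10 (-0.12 to 0.11). Without centring, ITM2B and SUGT1 of the last run lay on the other side of 0, and the middle run kept a median of 0.62. The medians of the 22 other chromosomes lay between -0.25 (chromosome 2) and 0.26 (chromosome 22). Those are medians of whole chromosomes, while the borders of the runs were drawn from the ratios themselves, so they are set side by side as a description only.

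**Figure D1:**
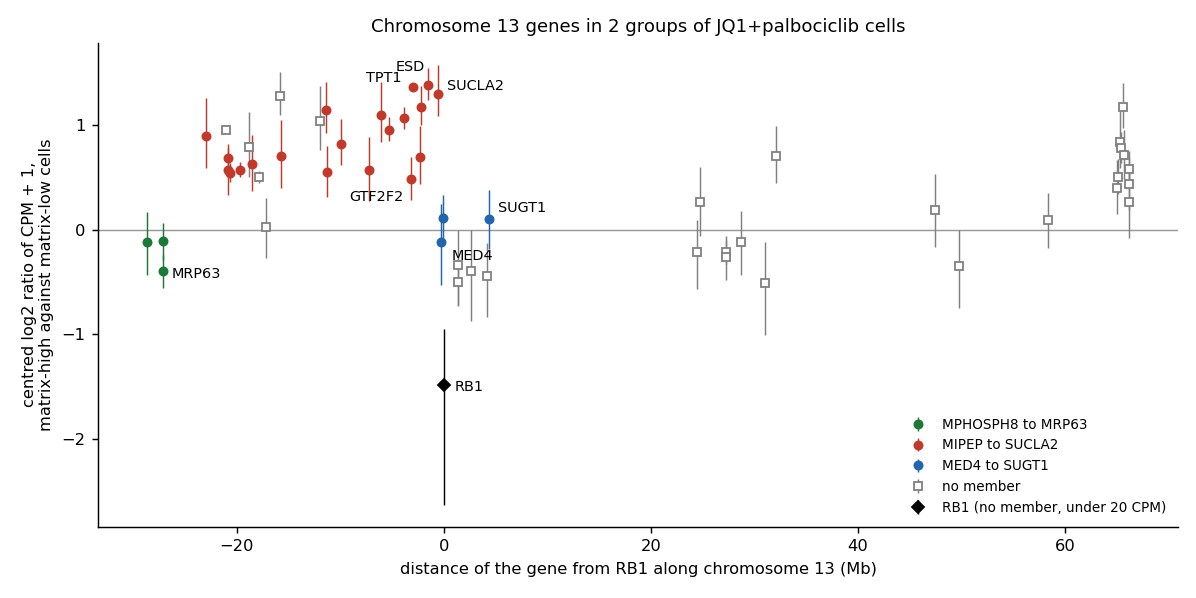
Centred log2 ratio of CPM + 1 in matrix-high against matrix-low cells of JQ1+palbociclib (y axis) for chromosome 13 genes with at least 20 CPM and for RB1, by distance from the start of RB1 in Mb (x axis). Filled circles are members coloured by run, open squares are other genes, the diamond is RB1, and bars are 95% counting intervals. The middle run lies at 0.48 to 1.38, the members on either side lie near 0 or below it, and RB1 lies at -1.49.

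Since the borders were drawn from the ratios, a step at each end of the middle run was fixed in advance. The values beside the borders are given as a description. On the side toward the centromere, MRP63 (MRPL57, chr13:21750797-21753223), a subunit of the mitochondrial ribosome, had a ratio of -0.39 (-0.56 to -0.24), and the next member, MIPEP (chr13:24304328-24463539), a peptidase of mitochondrial protein import, had 0.88 (0.33 to 1.64) at 5.65 CPM. Their RefSeq start sites were 2.71 Mb apart. On the side toward RB1, SUCLA2 (chr13:48319871-48612104), a subunit of the succinyl-CoA ligase of the citric acid cycle, had 1.30 (1.08 to 1.58), and MED4 (chr13:48627459-48669267), a subunit of the Mediator complex of transcription, had -0.12 (-0.53 to 0.25). Their start sites were 93.8 kb apart, and that of MED4 was 208.64 kb before RB1. The middle run itself covered 24.1 Mb from MIPEP to SUCLA2.

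The promoters of the 4 genes next to the steps are shown so that the neighbours that differed can be compared. They are the 250 bases before the RefSeq start site, located in GRCh37 on the strand of the gene, at chr13:21750547-21750796 (plus strand) for MRP63, chr13:24463540-24463789 (minus) for MIPEP, chr13:48575410-48575659 (minus) for SUCLA2 and chr13:48669241-48669490 (minus) for MED4. Capitals mark GC boxes (GGGCGG) and CCAAT boxes (CCAAT) found on either strand.
MRP63: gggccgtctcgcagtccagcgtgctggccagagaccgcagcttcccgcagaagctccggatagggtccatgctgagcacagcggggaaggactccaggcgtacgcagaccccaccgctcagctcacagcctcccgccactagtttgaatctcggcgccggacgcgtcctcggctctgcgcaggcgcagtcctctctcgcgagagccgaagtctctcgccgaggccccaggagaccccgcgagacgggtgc
MIPEP: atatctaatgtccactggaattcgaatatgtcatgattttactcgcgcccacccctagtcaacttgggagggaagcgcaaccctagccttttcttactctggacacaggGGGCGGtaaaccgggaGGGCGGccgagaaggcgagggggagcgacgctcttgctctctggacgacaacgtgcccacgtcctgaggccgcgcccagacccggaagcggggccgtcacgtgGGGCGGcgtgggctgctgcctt
SUCLA2: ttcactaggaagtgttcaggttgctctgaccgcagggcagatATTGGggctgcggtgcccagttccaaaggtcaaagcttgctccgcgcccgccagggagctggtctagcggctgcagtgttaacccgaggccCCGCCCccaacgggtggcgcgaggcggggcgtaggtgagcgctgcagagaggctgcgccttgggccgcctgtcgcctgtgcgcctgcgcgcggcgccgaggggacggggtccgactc
MED4: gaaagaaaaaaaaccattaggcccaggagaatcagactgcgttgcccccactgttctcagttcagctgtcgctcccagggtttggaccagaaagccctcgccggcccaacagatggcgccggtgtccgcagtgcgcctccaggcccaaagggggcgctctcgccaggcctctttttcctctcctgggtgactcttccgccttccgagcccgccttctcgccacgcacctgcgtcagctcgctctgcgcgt

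All 4 windows were rich in G and C (62.0 to 69.2%) and held 19 to 27 CpG dinucleotides. GC boxes occurred 3 times before MIPEP and 1 time before SUCLA2, and a CCAAT box 1 time before SUCLA2. The letters of neither box occurred in the windows of MRP63 and MED4, and none of the 4 held TATAAA. Among 27305 promoter windows of the genome, 42.31% held a GC box, 33.04% a CCAAT box and 11.13% TATAAA. A promoter entry was found for 41 of the 46 members.

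The ratio was not the same for all genes of the middle run. The lower and upper quartiles of the 20 members were 0.57 and 1.11. ESD (chr13:47345391-47371555), an esterase of formaldehyde removal, had the highest ratio (1.38, interval 1.24 to 1.55), with 146 CPM in matrix-high and 61.6 CPM in matrix-low cells. TPT1 (chr13:45907606-45915419), the translationally controlled tumour protein and the most abundant member, had 9501 against 4090 CPM, a ratio of 1.36 (1.34 to 1.38). LCP1, which bundles actin, had 97.0 against 47.1 CPM, a ratio of 1.17. These genes act in different processes.

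At the other end of the middle run stood GTF2F2, a subunit of the general transcription factor TFIIF, with 69.8 against 55.0 CPM and a ratio of 0.48 (0.28 to 0.69). It is the neighbour of TPT1 in the map order of the members. POLR1D, a subunit of RNA polymerases I and III, had 374 against 283 CPM, a ratio of 0.55 (0.46 to 0.63). POMP, the proteasome maturation protein, had 553 against 410 CPM, a ratio of 0.57 (0.50 to 0.65). The counting intervals of POMP and POLR1D did not overlap that of TPT1, so the members of the run differed among themselves by more than counting error. Reads of TPT1 can be shared with its processed pseudogenes, and its level is uncertain to that extent.

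The other members among the 6 highest ratios were SUCLA2, ALG5, a glucosyltransferase of N-glycan assembly (1.15, 0.93 to 1.41), and AKAP11, an anchor of protein kinase A (1.10, 0.84 to 1.41). The 6 lowest among the 26 were MRP63, MED4, MPHOSPH8, which binds methylated histone H3 (-0.12, -0.43 to 0.17), SAP18, a subunit of a histone deacetylase complex (-0.11, -0.29 to 0.06), SUGT1, a co-chaperone of HSP90 (0.10, -0.18 to 0.37), and ITM2B, a membrane protein (0.11, -0.11 to 0.33). Among these 6 lowest only MRP63 had an interval wholly below 0.

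By role, the 7 members of transcription and chromatin with at least 20 CPM ranged from -0.12 to 1.07, where TSC22D1, a transcription regulator, was highest with 296 against 156 CPM. The 3 members of RNA processing (EXOSC8, WBP4 and ZC3H13) had 0.55 to 0.70, and ZC3H13, which belongs to the complex that methylates adenosine in mRNA, had 39.6 against 26.7 CPM. The 4 mitochondrial members ranged from -0.39 (MRP63) to 1.30 (SUCLA2), with DNAJC15, a co-chaperone of mitochondrial import, at 235 against 133 CPM. The 5 members of protein modification and turnover ranged from 0.10 (SUGT1) to 1.15 (ALG5). PDS5B, a regulator of cohesin, had 0.71 with 29.9 against 19.9 CPM. The 6 remaining members (NUPL1, AKAP11, TPT1, LCP1, ESD and ITM2B) ranged from 0.11 to 1.38.

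The 20 members below 20 CPM in JQ1+palbociclib, each with wide counting error, are given as a description. The borders of the runs followed the ratios, and MIPEP, which opens the middle run, is among these members. All 16 of the middle run were higher in matrix-high cells, with a median of 0.77 (0.39 to 1.41), among them BRCA2 with 12.2 against 8.01 CPM (ratio 0.69, 0.22 to 1.25). The intervals of CDK8, KBTBD7, NUFIP1 and COG3 included 0, and EPSTI1 rested on 5 and 4 UMIs. The share of all genes under 20 CPM that were higher was not counted. Of the 3 in the first run, 1 was higher and 2 were lower (-0.30 to 0.21). RCBTB2, which lies within the RB1 record of the annotation used, on the opposite strand, rested on 6 and 18 UMIs.

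Genes that were no members were compared by the stretch they lay in. Inside the middle run, 6 such genes had at least 20 CPM and all 6 were higher, with a median of 0.87. They were named because they fell in this stretch, after their values were seen: N4BP2L2 at 1.28, SPG20 at 1.04, RPL21 at 0.95, SLC7A1 at 0.79, HMGB1 at 0.51 and HSPH1 at 0.02. The interval of HSPH1, a heat shock protein, included 0 (-0.27 to 0.30). Between MED4 and SUGT1, 4 genes that were no members (EBPL, KPNA3, RNASEH2B and CKAP2) were all lower, with a median of -0.42 (-0.50 to -0.34). RB1 itself (chr13:48877880-49173572) gave 14 UMIs in matrix-high and 192 in matrix-low cells, 3.70 against 13.6 CPM, a ratio of -1.49 (-2.63 to -0.95). It had 12.3 CPM in the whole library. Beyond SUGT1, 10 genes up to position 110 Mb had a median of -0.16.

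The cell groups differed in other ways as well. Matrix-high cells had a median of 24707 UMIs and 5.31% mitochondrial UMIs, and matrix-low cells 21534 UMIs and 7.58%. The summed level of 40 S-phase genes was 805 against 985 CPM, and that of 54 G2/M genes 2735 against 3193 CPM. The part of these differences in the members' ratios was not tested. When cells were thinned to 10000 UMIs each, the median of the middle run was 0.80, and among cells passing the study's filter it was 0.78. JQ1+palbociclib cells with 3 or more UMIs of PKIB, another gene that sets cells of this library apart (104 cells against 696 with none), gave a middle-run median of -0.08, and 11 cells were in both the PKIB-high and the matrix-high group.

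The same rule for cells gave smaller ratios in the other libraries. The middle-run median was -0.0023 in pre-treatment cells and -0.04 in DMSO. It was 0.14 in paclitaxel, 0.25 in palbociclib, 0.24 in JQ1-A, 0.14 in JQ1-B and 0.15 in JQ1+paclitaxel. In JQ1-A, all 20 members of the run with at least 20 CPM were higher (0.0041 to 0.57). The first run went the other way in each of these 5 drug libraries, with medians from -0.69 in JQ1+paclitaxel to -0.20 in paclitaxel. RB1 had a ratio below 0 in all 7, from -1.07 in paclitaxel to -0.08 in DMSO. The middle-run median of JQ1+palbociclib was not reached in the other 7, and the difference between libraries was not tested, since each is 1 sample.

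Levels per library put the matrix-high cells beside cells outside the combination. In such sums, fewer cells expressing a gene and less RNA per cell cannot be told apart. SUCLA2 was measured at 84.0 CPM in pre-treatment cells, 92.6 in DMSO, 72.8 in paclitaxel, 61.4 in palbociclib, 47.8 in JQ1-A, 49.2 in JQ1-B, 61.0 in JQ1+paclitaxel and 31.2 in JQ1+palbociclib. Its 58.4 CPM in matrix-high cells lay near the single drugs, and its 25.7 CPM in matrix-low cells below all 8 libraries. ESD had 221 CPM in pre-treatment cells, 249 in DMSO, 171 in paclitaxel, 146 in palbociclib, 113 in JQ1-A, 116 in JQ1-B, 158 in JQ1+paclitaxel and 78.3 in JQ1+palbociclib. For ESD too, the matrix-low cells (61.6 CPM) were below every library and the matrix-high cells (146 CPM) were not.

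TPT1 did not share this order. It had 4102 CPM in pre-treatment cells, 4521 in DMSO, 4438 in paclitaxel, 4789 in palbociclib, 5979 in JQ1-A, 6334 in JQ1-B, 6711 in JQ1+paclitaxel and 5135 in JQ1+palbociclib. Matrix-low cells (4090 CPM) were at the level of pre-treatment cells, and matrix-high cells (9501 CPM) were above all 8 libraries. MRP63, of the first run, varied little, with 157 CPM in pre-treatment cells, 149 in DMSO, 179 in paclitaxel, 153 in palbociclib, 155 in JQ1-A, 173 in JQ1-B, 193 in JQ1+paclitaxel and 148 in JQ1+palbociclib. Its 107 CPM in matrix-high cells was below every library. MED4 had 27.0, 27.1, 26.1, 19.2, 26.8, 26.3, 29.98 and 22.0 CPM in the same order of libraries, with the palbociclib library lowest.

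**Figure D2:**
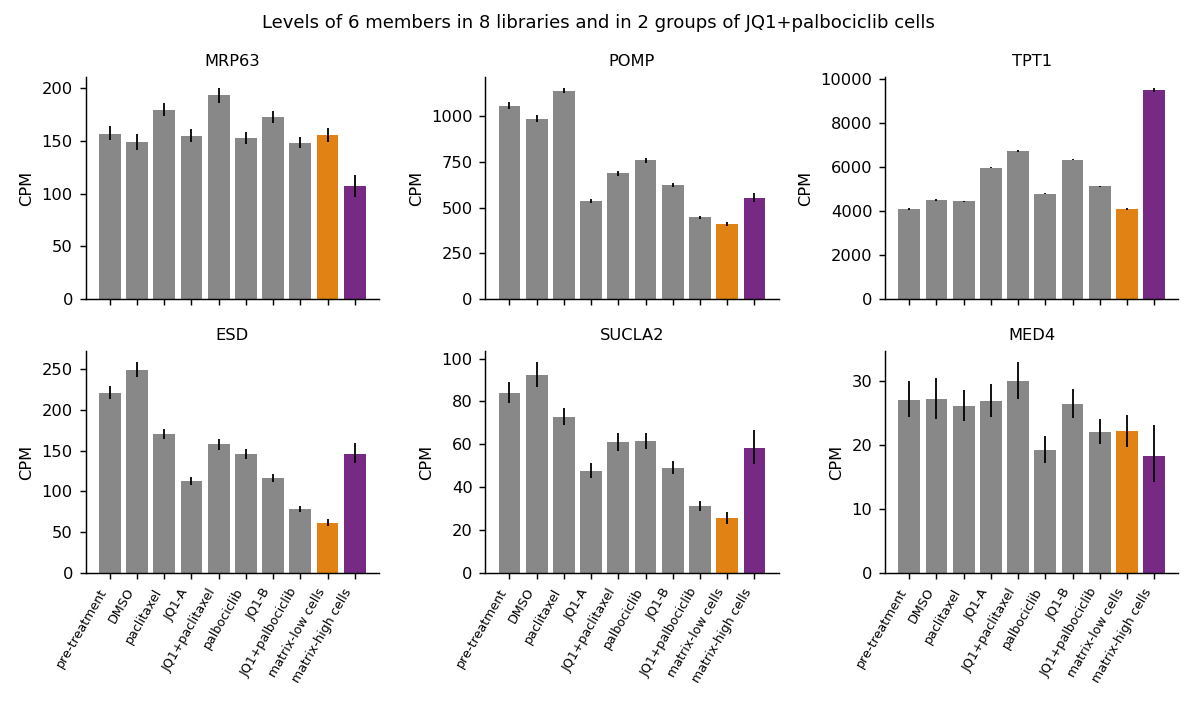
CPM (y axis, from 0) of 6 members in the 8 libraries (grey bars) and in matrix-low (orange) and matrix-high (purple) cells of JQ1+palbociclib, with 95% counting intervals. POMP, ESD and SUCLA2 are lowest in matrix-low cells, TPT1 is highest in matrix-high cells (9501 CPM), and MRP63 is lowest there (107 CPM).

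Against DMSO, the middle run was lower in libraries with JQ1 or palbociclib, most in their combination. For palbociclib, JQ1-B and JQ1+palbociclib, DMSO was of the other experiment, so these comparisons cannot tell drug and experiment apart. All these ratios share the DMSO library and are relative to the median gene, which before centring lay at -0.34 to -0.24 in the 5 libraries with JQ1 or palbociclib. The middle-run median over 23 members was -0.05 in pre-treatment cells and 0.01 in paclitaxel. It was -0.32 in JQ1-A, -0.26 in JQ1-B, -0.10 in JQ1+paclitaxel, -0.19 in palbociclib and -0.57 in JQ1+palbociclib. In JQ1+palbociclib, 14 of the 23 were lower by at least 0.5, against 17.4% of 4433 genes. Other chromosomes had medians from -0.47 (chromosome X) to 0.34 (chromosome 20) in this comparison, given as a description since the borders of the runs followed the cell ratios. Chromosome X lay below the run in JQ1-A (-0.35), JQ1-B (-0.47) and JQ1+paclitaxel (-0.57), and above it in palbociclib (-0.15). The S-phase genes summed to 1618 CPM in DMSO and 956 CPM in JQ1+palbociclib, and their part in the difference was not tested.

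The outer runs did not follow. In JQ1+palbociclib the median of the first run was 0.31 and that of the last run 0.03, and in JQ1+paclitaxel they were 0.61 and 0.48. By uncentred CPM, JQ1+palbociclib was the lowest of the 8 libraries for 18 of the 23 middle-run members and the highest for 1 of them, UBL3. The median gene of that library lay at -0.32 against DMSO before centring, and the share of all genes lowest there was not counted. Of the mitochondrial members, 4 of 5 were lower by at least 0.5 in JQ1+palbociclib, and MRP63 was the exception. MRPS31, of the small mitochondrial ribosomal subunit, had 46.8 CPM in DMSO and 12.3 CPM in JQ1+palbociclib.

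Compared with JQ1-B, the JQ1 library of its own experiment, JQ1+palbociclib had a middle-run median of -0.29. Of the 23 members, 20 were lower, 6 of them by at least 0.5, against 3.02% of 4433 genes. Against palbociclib alone the median was -0.45, and with JQ1-A in place of JQ1-B it was -0.30. JQ1+paclitaxel against paclitaxel gave -0.06. Each of these compares 1 library with 1 library and has no replicate check.

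Split by cell group, JQ1+palbociclib gave different values against DMSO. Matrix-low cells had a middle-run median of -0.78 against DMSO, with 21 of 23 members lower and 18 of them by at least 0.5, against 18.3% of 4433 genes. Matrix-high cells had a median of -0.09, with 14 members lower and 9 higher. Both medians were relative to the median gene, which lay at -0.30 in matrix-low and -0.44 in matrix-high cells before centring. DMSO was of the other experiment here too. In matrix-high cells TPT1 was at 1.51 against DMSO and LCP1 at 0.42, while ESD was at -0.32 and SUCLA2 at -0.22.

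**Figure D3:**
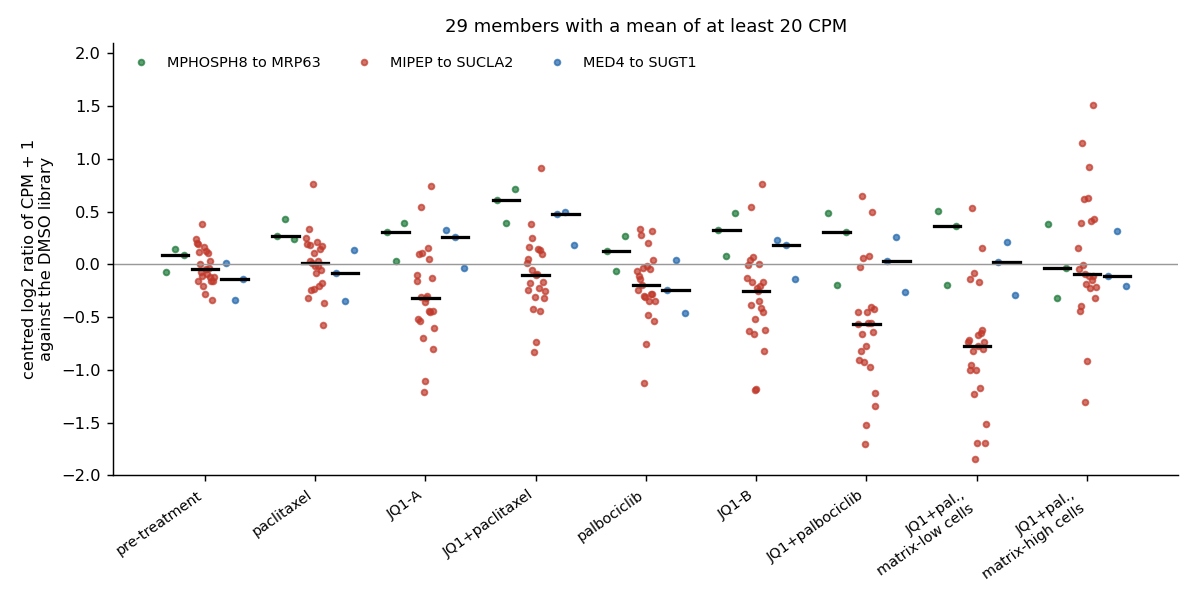
Centred log2 ratio of CPM + 1 against the DMSO library (y axis) for the 29 members with a mean of at least 20 CPM, in the 7 other libraries and in the cell groups of JQ1+palbociclib (x axis). Points are members coloured by run and black lines are medians. The middle run (red) has a median of -0.57 in JQ1+palbociclib, -0.78 in its matrix-low cells and -0.09 in its matrix-high cells.

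Single cells showed how widely the shift was spread. With each cell thinned to 10000 UMIs, the 35 middle-run members other than TPT1 summed to a median of 37 UMIs per cell in DMSO (quartiles 30 and 45) and 18 in JQ1+palbociclib (14 and 23). Matrix-high cells had a median of 27 (21 and 34), matrix-low cells 17 (13 and 21), and the 242 cells between the groups 19 (15 and 24). Unthinned, per 10000 UMIs, the medians were 26.6, 16.9 and 18.4. Neither set of sums was centred on the median gene, which lay below DMSO in both cell groups and further below in matrix-high cells. The part of that offset in these medians was not tested. The median of the cells between the groups was nearer to that of matrix-low cells.

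The share of cells at or above the DMSO median was 54.4% in DMSO (95% exact binomial interval 49.6 to 59.1), 14.9% in matrix-high cells (9.46 to 21.9) and 1.02% in matrix-low cells (0.375 to 2.20). It was 62.6% in pre-treatment cells, 62.7% in paclitaxel, 23.0% in palbociclib, 12.6% in JQ1-A, 14.5% in JQ1-B, 25.4% in JQ1+paclitaxel and 3.60% in JQ1+palbociclib. The intervals of these shares cover only the sampling of cells within a library, whose cells are not replicates of a treatment. Intervals above cover counting error only. The DMSO share follows from using its own median as the cut. The shares rest on sums that were not centred on the median gene. The distributions were broad and overlapped. The variance of the sum over its mean was 2.18 in matrix-low, 3.35 in matrix-high and 3.76 in DMSO cells, and 6.07 in JQ1+paclitaxel, where 1 would be counting noise alone. The outer-run members summed to a median of 3 UMIs in matrix-high, 4 in matrix-low and 5 in DMSO cells.

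**Figure D4:**
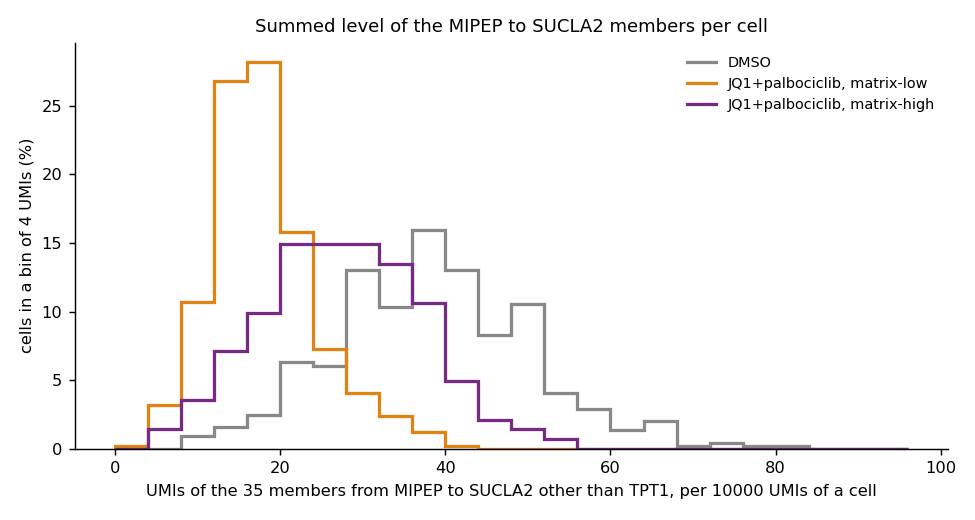
Percent of cells (y axis) by the summed UMIs of the 35 middle-run members other than TPT1 per cell thinned to 10000 UMIs (x axis, bins of 4 UMIs), for DMSO and for matrix-high and matrix-low cells of JQ1+palbociclib. Matrix-low cells peak lowest (median 17), matrix-high cells lie between (27) and DMSO cells are highest (37). The sums are not centred on the median gene.

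A fit over all 8 libraries asked which members moved with each drug. UMIs were summed per library and tested with edgeR's quasi-likelihood test with terms for JQ1 (4 libraries against 4), palbociclib and paclitaxel (2 against 6 each). Genes were called where the p-value, adjusted by Benjamini-Hochberg over all 9288 genes, was under 0.05. Of the 43 members tested, JQ1 called 19 lower and 6 higher, against 19.7% of all genes called lower and 17.8% called higher. The levels per library were known when the members were chosen, so the counts describe the members and are no independent support.

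All 19 members called lower with JQ1 lay in the middle run, of which 34 members were tested and 2, UBL3 and TPT1, were called higher. In the first run 2 of 6 were called, MPHOSPH8 and ZMYM2, both higher, and in the last run 2 of 3, MED4 and ITM2B, both higher. These calls of the outer runs were weak, and so were some of the middle run. Of 15 alternative fits, MED4 was called in 1, MPHOSPH8 in 5, ITM2B in 6 and ZMYM2 in 6, against 13 for TPT1. In the middle run, GTF3A was called in 2, COG3 and ELF1 in 3 each, and LCP1 and WBP4 in 4 each. ESD was called in 5, and MTIF3 and SUCLA2 in 6 each. The other members called lower were called in 8 (NUPL1) to 14 fits (EXOSC8, ALG5 and MRPS31). The median log2 fold change was -0.34 in the middle run, 0.28 in the first and 0.28 in the last, beside -0.0032 over all genes. For 15 of the 43 members (34.9%) the levels with and without JQ1 did not overlap, against 28.2% of all genes, and 12 of these were called.

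The members with the largest falls were EXOSC8, ALG5, MRPS31, NUFIP1 and MIPEP. EXOSC8, a subunit of the RNA exosome, had 149, 174, 191 and 66.8 CPM in pre-treatment, DMSO, paclitaxel and palbociclib cells, and 58.6, 62.6, 76.4 and 42.0 CPM in JQ1-A, JQ1-B, JQ1+paclitaxel and JQ1+palbociclib. The palbociclib library lay among the JQ1 libraries, so the groups overlapped. Its log2 fold change with JQ1 was -1.01 ± 0.12 (SE, adjusted p = 0.0012). ALG5 had 109, 84.3, 147 and 57.9 CPM without JQ1 and 40.5, 43.7, 49.3 and 35.0 CPM with it, in the same orders. These groups did not overlap, and the log2 fold change was -0.98 ± 0.13 (adjusted p = 0.0019). MRPS31 followed with -0.98 ± 0.11 (adjusted p = 0.0012), NUFIP1, which takes part in assembling RNA-protein particles, with -0.75 ± 0.13 (adjusted p = 0.0042), and MIPEP with -0.67 ± 0.12 (adjusted p = 0.0050).

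Among the abundant members, POMP had 1056, 984, 1137 and 757 CPM without JQ1 and 536, 624, 687 and 446 CPM with it, without overlap. Its log2 fold change was -0.58 ± 0.09 (adjusted p = 0.0029). DNAJC15 and GTF3A, the factor that starts transcription of 5S ribosomal RNA genes, were also called lower, at -0.50 and -0.26. POLR1D (-0.21, adjusted p = 0.0995), SAP18 (-0.12, adjusted p = 0.29), TSC22D1 (-0.10, adjusted p = 0.53) and MRP63 (0.26, adjusted p = 0.061) did not pass. LCP1 passed at -0.33 ± 0.11 (adjusted p = 0.047), and BRCA2 did not, with a mean of 11.7 ± 1.69 CPM with JQ1 and 15.7 ± 4.44 CPM without (SD, n = 4 each, -0.18, adjusted p = 0.24 in the fit).

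The members with the largest rises were ZMYM2, TPT1, UBL3, ITM2B and MPHOSPH8. ZMYM2, a zinc finger protein of a corepressor complex, had 4.54, 5.55, 4.68 and 10.8 CPM in pre-treatment, DMSO, paclitaxel and palbociclib cells and 8.10, 8.77, 9.55 and 10.1 CPM in JQ1-A, JQ1-B, JQ1+paclitaxel and JQ1+palbociclib. The palbociclib library was the highest of all 8. The log2 fold change with JQ1 was 0.78 ± 0.22 (adjusted p = 0.027). TPT1 rose by 0.63 ± 0.13 (adjusted p = 0.0074), and its groups did not overlap. UBL3, a ubiquitin-like protein at membranes, rose by 0.40 ± 0.10 (adjusted p = 0.014), ITM2B by 0.39 ± 0.13 (adjusted p = 0.039) and MPHOSPH8 by 0.29 ± 0.09 (adjusted p = 0.034). RB1, the neighbour that is no member, was called higher with 0.73 ± 0.14 (adjusted p = 0.0056) and had 8.94, 8.38, 8.42 and 10.1 CPM without JQ1 and 12.7, 13.2, 13.7 and 12.3 CPM with it.

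**Figure D5:**
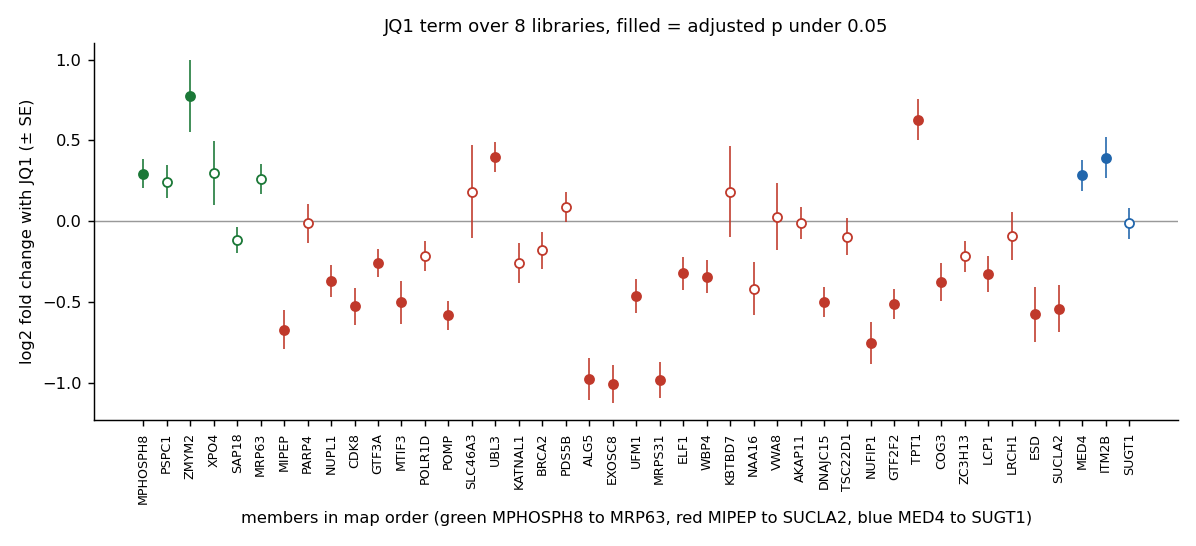
Log2 fold change of the JQ1 term over 8 libraries (y axis, bars ± SE) for the 43 members tested, in map order (x axis). Filled points have an adjusted p under 0.05. The 19 called lower all belong to the middle run (red), and the called members of the outer runs (green and blue) are all higher.

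The JQ1 calls depended on the libraries. With the experiment as a further term, 9 members were called lower and 1, TPT1, higher, against 11.5% and 10.5% of all genes, so none of the 4 outer-run calls was kept. Within the experiment of JQ1-A, DMSO, paclitaxel and JQ1+paclitaxel, 6 of 43 were called lower and 2 higher (ZMYM2 and TPT1), against 14.7% and 15.7% of all genes, with a members' median of -0.17. In that experiment the share of members called lower was close to the share of all genes, and the share called higher was below it. Within the experiment of JQ1-B, palbociclib and JQ1+palbociclib, where both JQ1 libraries were compared with palbociclib alone, the median was -0.20. That fit rests on 3 libraries, 1 of them without JQ1, and its calls carry no weight. In the 6 libraries that pair JQ1 with no JQ1 under the same other drug (DMSO with JQ1-A, paclitaxel with JQ1+paclitaxel, palbociclib with JQ1+palbociclib), edgeR called 3 members lower, EXOSC8, MRPS31 and ALG5, against 2.34% of all genes. It called none higher, against 1.59%, 15 of the 43 members had an unadjusted p under 0.05, and the median was -0.26. Leaving out 1 library at a time gave 9 to 18 members called lower and 1 to 7 called higher. Over all genes, the same fits called 1760 to 4190. Without pre-treatment cells the counts of members were 10 and 1, without DMSO 11 and 3, without JQ1-A 10 and 1, and without JQ1-B 9 and 1. The share of all genes was not set beside each of these counts, so they are not compared with it.

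No member was called for palbociclib, for which edgeR called 0.0754% of genes lower and 0.205% higher. EXOSC8 came nearest, at -0.85 (adjusted p = 0.068). At an unadjusted p under 0.05 there were 22 of 43 members and 2056 of 9288 genes. Fold changes were below 0 for 33 of 43 members and 4486 of 9288 genes, and the members' median was -0.27, with -0.31 in the middle run, 0.04 in the first and -0.34 in the last. DESeq2, which called more genes in total than edgeR, called 6 members lower and none higher. Its calls over all genes were not split by direction, so these members are not compared with a share of all genes. For paclitaxel, 0 members and 0% of genes were called in either direction. At an unadjusted p under 0.05 there were 9 of 43 members and 395 of 9288 genes, and DESeq2 called 0 members. Fold changes were above 0 for 39 of 43 members, with a median of 0.14, and for 4873 of 9288 genes.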

How the data were processed

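Single-cell RNA of SUM159 cells was measured with 10x Genomics 3' chemistry. Per the study's methods, the authors aligned reads to hg19 and counted UMIs in Cell Ranger, and the deposited values are raw UMI counts per gene and cell. All 5738 cells were used, and 5575 (97.2%) passed the study's filter of 1 to 15% mitochondrial UMIs and at least 2000 genes. Genes were placed with GENCODE 44 on GRCh37 (15423 of 18955, 81.4%). Older symbols were matched through RefSeq synonyms. The members and gene lists were chosen with earlier results of these data known. No data on gene copy number were analysed here.

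Counts were summed per library or cell group and scaled to CPM, with a pseudocount of 1. Genes with at least 5 CPM in at least 2 libraries were tested with edgeR 4.0.16 (TMM, quasi-likelihood, 4 residual degrees of freedom) in R 4.3.3, with DESeq2 1.42.0 as an alternative. Standard errors were derived as the absolute fold change divided by the root of F. Each library pools cultures, so p-values measure only the spread between these libraries. Count intervals were 95% exact (Clopper-Pearson or Poisson). Per-cell values used 5487 filtered cells with at least 10000 UMIs, and 88 were too shallow. No doublet caller was run. Named members were the 10 most abundant, the 6 lowest and 6 highest cell ratios, the 5 largest called changes in each direction, the most abundant member of each role group, BRCA2 and LCP1. The fit was tested on simulated data with known changes.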

Additional observations from a re-analysis of the deposited data

How the results depend on the processing

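For the cell contrast, the median over all 26 members was 0.65, and it moved to 0.70 with 10 or more gate UMIs against 0, to 0.42 with 3 or more against 0, to 0.52 with TIMP3 alone, to 0.46 with COL1A1 alone, to 0.69 in thinned cells and to 0.51 without centring. The middle-run median moved to 0.61, 0.71, 0.69 and 0.62 with 3 or more gate UMIs, TIMP3 alone, COL1A1 alone and no centring. Members higher by at least 0.5 numbered 11 with 3 or more gate UMIs, 12 with COL1A1 alone and 32 with members of any level, and members lower numbered 2 with 3 or more gate UMIs and 2 with TIMP3 alone, against 4. Without cells that were also PKIB-high, an alternative chosen after seeing the data, the medians were 0.78 and 0.84. The members' median in JQ1+palbociclib against JQ1-B, -0.27, moved to -0.30 without centring and to -0.21 with members of any level. In the outer runs, MPHOSPH8 was at 0.0013 with 10 or more gate UMIs and SAP18 at 0.06 in thinned cells. The causes were not tested.

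With the experiment as a term, JQ1 called 2043 genes (3488 in all 8 libraries), 9 members lower and 1 higher, and palbociclib 0 genes. For palbociclib (26 genes), DESeq2 called 515 genes and 6 members lower, and without a filter on low counts 205 genes and 2 members were called. For paclitaxel (0 genes), DESeq2 called 9 genes and the fit without a filter 2. The fits within an experiment and the paired fit were added after seeing the data. Within the paclitaxel experiment JQ1 called 6 members lower and 2 higher, and paclitaxel 2 genes. Within the palbociclib experiment JQ1 called 131 genes and 0 members in either direction, with 1 residual degree of freedom, and ZMYM2 (-0.15) and WBP4 (0.0788) changed sign. Leaving out 1 library at a time gave 1760 to 4190 genes for JQ1, 9 to 18 members lower and 1 to 7 higher, 0 to 938 genes for palbociclib with 0 to 9 members lower and 0 to 1 higher, and 0 to 4 genes for paclitaxel; where this left 1 library of a kind, it was assumed to vary like the others. By replicate number, no paired analysis was possible because the groups shared fewer than 2 replicate numbers. With 6 libraries paired by the other drug instead, JQ1 called 361 genes, 3 members lower and 0 higher. Members under 20 CPM rest on few UMIs in matrix-high cells, and each treatment has 1 library within an experiment.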

Other observations

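Far from the members, near the end of the long arm of chromosome 13, another group of genes was higher in matrix-high cells of JQ1+palbociclib. All 9 genes beyond position 110 Mb with at least 20 CPM were higher, with a median of 0.58 (0.26 to 1.17). They were chosen after their values were seen. TMEM255B had the highest ratio (1.17, 0.97 to 1.40), with 74.0 against 35.9 CPM. TFDP1, the partner of E2F transcription factors, had 140 against 89.7 CPM (0.78, 0.63 to 0.93), and CUL4A, a scaffold of a ubiquitin ligase, had 44.7 against 37.2 CPM (0.40, 0.15 to 0.66). GAS6, a ligand of the TAM receptors, had 56.3 against 37.7 CPM (0.71, 0.49 to 0.96). Against DMSO, 10 genes of this stretch had a median of -0.46 in matrix-low and 0.17 in matrix-high cells. Between them and the members, SPRY2, an inhibitor of receptor tyrosine kinase signalling, had 42.3 against 28.4 CPM (0.70, 0.44 to 0.99), while RBM26 had 13.5 against 21.8 CPM (-0.51, -1.01 to -0.12).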
